A study of Mus musculus with 52 samples.

Results

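Light at night that lasted for 6 h left a set of genes in the mouse suprachiasmatic nucleus (SCN) below their level in darkness at the same hour, and these genes are described here. The SCN is the paired hypothalamic nucleus that holds the circadian pacemaker. Members were chosen by measured values: a gene was taken when its mean RPKM (read counts scaled to gene length and to the library's total) after 6 h of light was at most 0.75 times its mean in the dark at CT23. CT stands for circadian time, the hour on the mouse's internal clock. Both 6 h libraries also had to lie below both CT23 libraries and below both CT17 libraries without the suffix s, and the CT23 mean had to reach 1 RPKM. Npy6r, Hdac9, Lhx1, Hes5, Cck and potassium channel genes with symbols that start with Kcn were left out, of which Hdac9, Kcnj8 and Lhx1 had met the limits. This gave 93 genes of 21999 in the table, or of the 12368 genes with a CT23 mean of at least 1 RPKM. Because measured values chose them, their lower level at 6 h than at CT23 is a description and carries no test.

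All animals were male mice, 11 to 12 weeks old, and each RNA library pooled 6 SCN pairs. In the light-pulse experiment light that began at CT17 was given to wild-type mice, and it lasted 0.5 h in 4 libraries and 1 h, 3 h or 6 h in 2 libraries apiece. Dark controls were taken at CT17 in 4 libraries and at CT23 in 2. At CT17 and 0.5 h, 2 of the 4 libraries carry the suffix s, and the labels do not say whether these come from the same pools as the libraries with the same number. In the Npas4 experiment, mice labelled Npas4 null (KO) with 1 h of light from CT17 or kept in the dark were set beside wild-type (WT) littermates in the same lighting, and each of these 4 groups had 3 libraries. H3K27ac and H3K4me3, histone marks found at active promoters, were profiled by ChIP-seq of WT SCN with 1 h of light or without it, from 2 pooled SCN pairs each, with 1 peak list per mark and condition. The sources used here name neither the strain, nor which part of Npas4 is deleted, nor the circadian time of the dark group of the Npas4 experiment.

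Retinal input at night reaches the SCN through glutamate and the peptide PACAP, raises calcium and cyclic nucleotide signalling in SCN neurons and induces immediate-early genes within the first hour. The induced genes include transcription factors and clock genes of the Period family, through which light shifts the clock. The members include receptors, cyclic nucleotide kinase regulators, Wnt pathway genes and matrix enzymes, several of which are known from neuronal signalling.

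Libraries differed in ways that bear on the members. Counted reads numbered 12477382 to 15369985 in the 12 light-pulse libraries whose titles lack the suffix s, 27413860 to 30149286 in the 4 that carry it and the 12 of the Npas4 experiment 26638939 to 32097975. Six6 and Vip, genes that mark the SCN, were at 26.8 to 44.0 and 114 to 716 RPKM over all 28 libraries. The 0.5 h replicate 2 stood apart: the summed level of 8 meningeal fibroblast markers was 242 RPKM there, against 20.9 RPKM in replicate 1, and that of 8 pericyte markers was 118 RPKM, against 38.6 RPKM. The suffix libraries 2s at 0.5 h and at CT17, and replicate 1 of the KO dark group, had meningeal sums of 116, 74.8 and 69.9 RPKM, and the other libraries 13.6 to 25.5 RPKM. In pooled tissue, fewer cells of a type and less RNA per cell cannot be told apart.

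The difference at 6 h was graded. The 6 h mean was at most 0.5 times the CT23 mean for 6 members, between 0.5 and 0.65 times for 25 and above 0.65 times for 62, with a median of 68.7% and a range of 13.5% to 74.98%. Most members were weakly expressed: the CT23 mean had a median of 3.00 RPKM and a highest value of 40.4 RPKM, with 33 members under 2 RPKM, whereas the median over all 12368 expressed genes was 8.36 RPKM. In reads, a member had 5 to 2503 counts in a 6 h library (median 114) and 5 to 3686 in a CT23 library (median 170). Scgn, Tnfaip6 and Hsd11b1 lay just inside the limit at 74.75%, 74.89% and 74.98% of CT23, and Ptgs1, Tmem241 and Fam35a just outside it at 75.05%, 75.07% and 75.07%. In the fit over all genes, 32 of the 92 members that passed the filter on low counts had an adjusted p of at most 0.05 at 6 h against CT23 (edgeR). Of all 14524 genes tested 0.365% were called lower there, and since the choice used these libraries no reading is made of that count, which was 12 to 16 when any 1 of these 4 libraries was left out. Cox7b2 did not pass the filter. RefSeq placed 6 members on the X chromosome.

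The brain-expressed ankyrin repeat gene Ankrd63 had the lowest ratio. It had 0.375 and 0.379 RPKM after 6 h of light, against 3.13 and 2.46 RPKM at CT23. Both 6 h values were below every other light-pulse library, which the choice had required against CT23 and against CT17 without the suffix. Baiap2l2, which encodes a membrane-bending adaptor of actin-rich protrusions, had 0.321 and 0.200 RPKM after 6 h, against 1.41 and 0.882 RPKM at CT23. In the dark at CT17 Baiap2l2 was at 0.402 to 0.564 RPKM over 4 libraries, so its CT23 libraries were the high ones. C130074G19Rik had 2.55 and 2.61 RPKM after 6 h, against 7.68 and 6.37 RPKM at CT23. The transmembrane protein gene Sertm1 had 2.73 and 3.31 RPKM after 6 h, against 8.80 and 6.31 RPKM at CT23. The synaptotagmin Syt17 had 7.50 and 8.22 RPKM after 6 h, against 19.9 and 15.1 RPKM at CT23. For the matrix protein gene Fras1 the values were 0.635 and 0.613 RPKM after 6 h, against 1.43 and 1.23 RPKM at CT23.

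**Figure D1:**
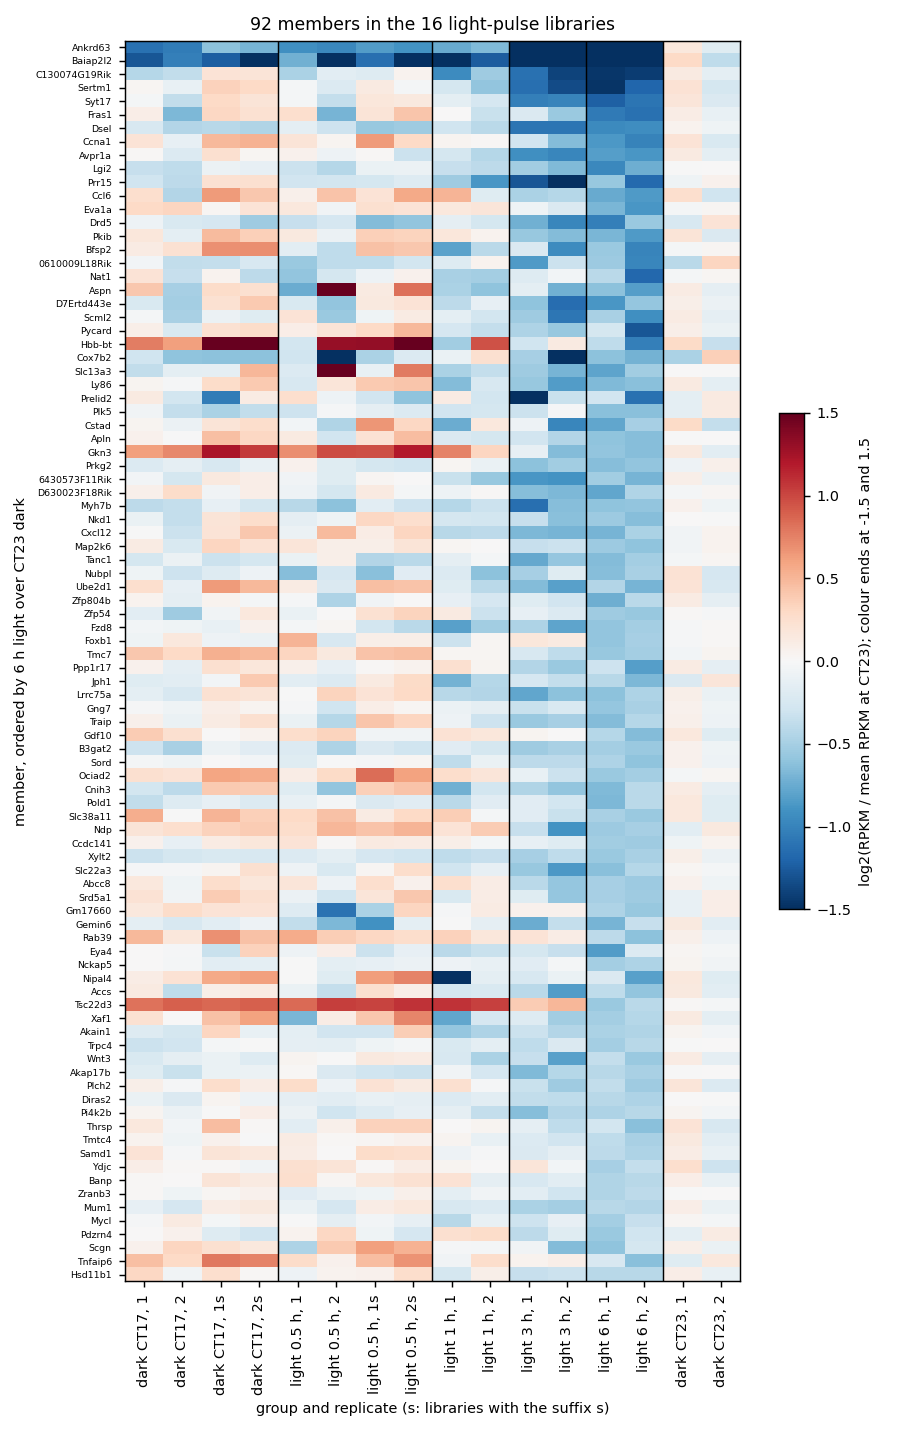
Each row is 1 of 92 members, ordered by 6 h light over CT23 dark with Ankrd63 at the top, and each column is 1 of the 16 light-pulse libraries. Colour is log2 of RPKM over the member's mean RPKM at CT23, blue below and red above it. The 6 h columns are blue by the way members were chosen. The 3 h columns are also mostly blue, but colour is set against CT23 libraries that the choice used. Blue at 3 h is therefore in part fixed by the choice. Tsc22d3 is red from CT17 to 3 h.

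Promoters of 4 members on which the results turn are printed below: Ankrd63 and Dsel for the size or small error of their differences, Avpr1a as the vasopressin receptor, and Tmc7 as the only one of the 4 with a full cyclic AMP response element (CRE). They are RefSeq sequences of build GRCm38.p6 (mm10), 250 bases before to 50 after the start, 5′ to 3′ on the gene's strand, in lower case with motif matches in capitals. Ankrd63 is chr2:118703914-118704213 on the minus strand, Dsel chr1:111864869-111865168 on the minus strand, Avpr1a chr10:122448249-122448548 on the plus strand and Tmc7 chr7:118584637-118584936 on the minus strand. The capitals mark TGACG in Avpr1a and TGACGTCA in Tmc7.
Ankrd63: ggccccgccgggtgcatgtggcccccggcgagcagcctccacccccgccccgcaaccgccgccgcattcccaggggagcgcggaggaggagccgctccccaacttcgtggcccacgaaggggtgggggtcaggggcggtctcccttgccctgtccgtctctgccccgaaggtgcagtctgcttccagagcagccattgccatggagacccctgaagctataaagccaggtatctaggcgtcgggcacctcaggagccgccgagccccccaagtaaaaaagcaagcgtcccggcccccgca
Dsel: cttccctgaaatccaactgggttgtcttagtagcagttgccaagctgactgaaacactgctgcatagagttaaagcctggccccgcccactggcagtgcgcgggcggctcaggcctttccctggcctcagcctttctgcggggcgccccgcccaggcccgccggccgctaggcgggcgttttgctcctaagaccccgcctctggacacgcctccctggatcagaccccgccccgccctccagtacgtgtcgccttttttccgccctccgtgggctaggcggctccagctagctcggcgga
Avpr1a: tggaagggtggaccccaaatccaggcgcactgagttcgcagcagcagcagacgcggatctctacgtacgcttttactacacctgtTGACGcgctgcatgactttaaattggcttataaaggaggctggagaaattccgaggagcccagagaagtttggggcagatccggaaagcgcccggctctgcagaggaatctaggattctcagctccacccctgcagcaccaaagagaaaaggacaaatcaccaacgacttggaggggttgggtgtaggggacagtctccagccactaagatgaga
Tmc7: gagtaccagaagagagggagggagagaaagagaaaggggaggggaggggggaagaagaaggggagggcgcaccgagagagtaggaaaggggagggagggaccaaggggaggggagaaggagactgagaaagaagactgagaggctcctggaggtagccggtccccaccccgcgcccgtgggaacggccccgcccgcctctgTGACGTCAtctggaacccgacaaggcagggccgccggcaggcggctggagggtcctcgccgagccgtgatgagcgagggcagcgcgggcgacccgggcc

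The motifs searched, on both strands, were the E-box CACGTG, the CRE TGACGTCA, the short CRE TGACG, which the full CRE contains, and the AP-1 site TGANTCA. A promoter was in the table for 74 members. The E-box was in promoters of 7 of these members (9.46%), the CRE of 3 (4.05%), the short CRE of 17 (23%) and the AP-1 site of 9 (12.2%). Among 9566 expressed genes with a promoter the shares were 11.8% for the E-box, 3.67% for the CRE, 35.7% for the short CRE and 5.82% for the AP-1 site, and among all 32851 promoters 7.15%, 1.79%, 20.8% and 7.81%. The CRE was found in Gemin6, Nubpl and Tmc7, and the AP-1 site in Bfsp2, Ccna1, Diras2, Gm17660, Map2k6, Plch2, Scgn, Tnfaip6 and Xaf1. A match describes letters in this window and no site in use.

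Whether the members were already lower before 6 h was tested in libraries that the choice did not use. After 3 h of light, 14 of the 92 tested members were lower than after 1 h and none was higher (edgeR quasi-likelihood test, adjusted p of at most 0.05 over all genes). Of all 14524 genes 0.702% were called lower and 0.716% higher. The median log2 change of the 92 tested members was -0.28, against 0.00 over all genes tested, and 76 of the 92 estimates were negative. In RPKM, both 3 h values were below both 1 h values for 63 of the 93 members (67.7%), as for 21.9% of expressed genes. The 3 h mean was at most 0.75 times the 1 h mean for 36 members (38.7%) and for 232 of the 12368 expressed genes (1.88%). Over all 93 members the 3 h mean was a median of 82.2% of the 1 h mean, with a range of 33.7% to 146%, against a median of 99.8% over expressed genes. These light pulses ended at CT20 and CT18, and with no dark libraries at those hours, light duration and circadian time cannot be told apart. Without 1 h replicate 1 or 3 h replicate 1 the count was 4, and without 3 h replicate 2 it was 6, of which 5 were among the 14. In these 3 fits 0.312% to 0.353% of all genes were called lower. With the labels' batch as a term 9 of the 14 were called (0.578% of all genes), and with no term for the suffix 6 (0.42%). The sum of 10 oligodendrocyte markers was 1187 and 1061 RPKM at 3 h, against 745 and 1092 RPKM at 1 h, with the low value in 1 h replicate 1, and the part of these cells in the result was not tested. Summed meningeal markers were 15.97 to 22.66 RPKM at 3 h and 16.7 to 18.9 RPKM at 1 h, pericyte markers 30.4 to 36.8 and 34.2 to 37.8 RPKM, and microglia markers 154 in both 3 h libraries, against 139 and 168 RPKM at 1 h.

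**Figure D2:**
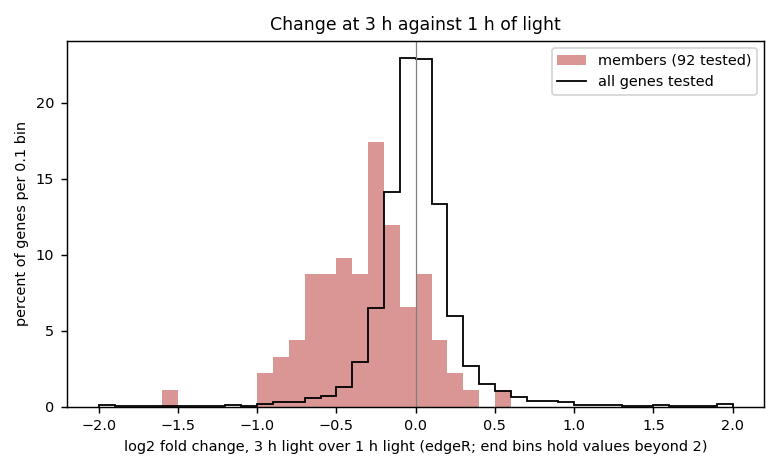
The log2 fold change of 3 h over 1 h of light is on the x axis, in bins 0.1 wide, and the percent of genes in each bin on the y axis, for the 92 tested members (red) and all 14524 genes tested (black line). The bulk of the members lies left of 0, with a median of -0.28, and the lone bar near -1.6 is Ankrd63.

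Members are grouped by role below, and the groups were formed after values were seen. At 3 h against 1 h, 15.2% of tested members and 0.702% of all genes were called lower. Both 3 h values were below both 1 h values for 67.7% of members and 21.9% of expressed genes. Among 4 receptors and G protein partners, Avpr1a was the 1 called lower at 3 h. It encodes the Gq-coupled V1a receptor through which vasopressin neurons signal within the SCN. It had 5.89 and 5.64 RPKM after 3 h, against 9.29 and 8.27 RPKM after 1 h, a log2 change of -0.61 ± 0.14 (SE, edgeR adjusted p = 0.0479). Its other light libraries were at 11.6 and 10.6 RPKM at 0.5 h without the suffix and 6.26 and 6.08 RPKM at 6 h, and in the dark it was at 9.62 to 13.1 RPKM at CT17 and 12.2 and 10.1 RPKM at CT23. All 4 values at 3 h and 6 h lay below those of every other light-pulse library. For the 6 h values the choice had required this against CT23 and against CT17 without the suffix. The call ended in 8 of its 11 alternatives. Drd5, a dopamine receptor coupled to cyclic AMP production, Gng7, a G protein gamma subunit, and Plch2, a phospholipase C, were not called, though for each of them both 3 h values were below both 1 h values.

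Of 5 genes tied to cyclic AMP and cyclic GMP kinases, a group also formed after values were seen, 3 were called lower. Pkib, an endogenous inhibitor peptide of the cyclic AMP-dependent kinase, had 5.98 and 5.66 RPKM after 3 h, against 9.95 and 9.18 RPKM after 1 h (log2 change -0.72 ± 0.12 SE, edgeR adjusted p = 0.00739). Prkg2, a membrane-bound cyclic GMP-dependent kinase, had 5.99 and 6.42 RPKM after 3 h, against 9.38 and 8.60 RPKM after 1 h (-0.53 ± 0.10, edgeR adjusted p = 0.0150). Ppp1r17 encodes G-substrate, a target of cyclic GMP-dependent kinase that inhibits protein phosphatases. It had 24.8 and 22.9 RPKM after 3 h, against 39.9 and 34.7 RPKM after 1 h (-0.65 ± 0.13, edgeR adjusted p = 0.0255). For all 3 genes the 3 h libraries lay below both 1 h libraries. After 6 h of light they were at 5.54 and 4.91, 5.92 and 6.09, and 27.2 and 19.1 RPKM, in the order given here. The kinase anchor gene Akap17b was not called at 3 h against 1 h, and neither was Akain1.

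Channels, transporters and vesicle genes gave 2 calls among 8 members, Syt17 and Abcc8. Syt17 had 8.60 and 8.80 RPKM after 3 h, against 15.8 and 14.7 RPKM after 1 h, a log2 change of -0.81 ± 0.14 (edgeR adjusted p = 0.00638). Abcc8, the sulfonylurea receptor subunit of ATP-sensitive potassium channels, had 1.602 and 1.41 RPKM after 3 h, against 2.51 and 2.29 RPKM after 1 h (-0.67 ± 0.12, edgeR adjusted p = 0.0124). The cation channel Trpc4 was at 2.47 and 2.76 RPKM after 3 h and 2.74 and 2.92 RPKM after 1 h, and its libraries overlapped. The postsynaptic scaffold Tanc1 had 1.76 and 2.01 RPKM after 3 h, against 2.74 and 2.93 RPKM after 1 h (-0.58 ± 0.10, edgeR adjusted p = 0.00842). Syt17, Abcc8 and Tanc1 each had 3 h libraries below both 1 h libraries.

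In the matrix group 1 of 5 was called, Dsel, a dermatan sulfate epimerase-like enzyme, with the lowest adjusted p of the 14. It had 6.95 and 6.98 RPKM after 3 h, against 12.1 and 11.2 RPKM after 1 h, a log2 change of -0.74 ± 0.08 (edgeR adjusted p = 0.000142). After 6 h it was at 7.70 and 7.80 RPKM, above its 3 h values, against 15.5 and 14.3 RPKM at CT23. B3gat2, a glucuronyltransferase and the member with the highest CT23 level, was not called at 3 h. It had 28.0 and 28.8 RPKM after 3 h, against 36.1 and 33.6 RPKM after 1 h. Of 4 Wnt and Frizzled members 1 was called: Ndp, which encodes the Frizzled-4 ligand norrin, had 2.98 and 2.03 RPKM after 3 h, against 4.38 and 4.92 RPKM after 1 h (-0.90 ± 0.18, edgeR adjusted p = 0.0177). Fzd8, a Wnt receptor, was at 3.07 and 2.44 RPKM after 3 h and at 2.40 and 2.94 RPKM after 1 h, and these 4 values lay below the 4.14 and 4.33 RPKM of the 0.5 h libraries without the suffix.

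Tsc22d3, a transcriptional regulator known as a glucocorticoid-induced leucine zipper protein, followed another course. It had 12.5 and 13.4 RPKM after 3 h, against 20.2 and 19.4 RPKM after 1 h, a log2 change of -0.61 ± 0.08 (edgeR adjusted p = 0.00110). After 6 h it was at 6.46 and 7.22 RPKM, against 9.69 and 9.38 RPKM at CT23. Its dark level itself was lower at CT23 than at CT17, where 4 libraries were at 16.8 to 17.8 RPKM, so that dark libraries also differed between these hours. CT23 was 55.2% of CT17 in Tsc22d3 and 222% in Baiap2l2, the lowest and highest such shares of the members, whose median was 103%. Ankrd63 had 0.748 and 0.406 RPKM after 3 h, against 1.66 and 1.77 RPKM after 1 h (-1.58 ± 0.21, edgeR adjusted p = 0.000760). Sertm1 had 3.44 and 2.98 RPKM after 3 h, against 6.28 and 5.02 RPKM after 1 h (-0.82 ± 0.17, edgeR adjusted p = 0.0255). Ociad2, with a log2 change of -0.44 ± 0.10 (edgeR adjusted p = 0.0398), was also among the 14. Dsel, Ankrd63 and Tsc22d3 kept the call in all 11 alternatives, whereas each of the other 11 lost it in 3 or more, among them a left-out library.

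**Figure D3:**
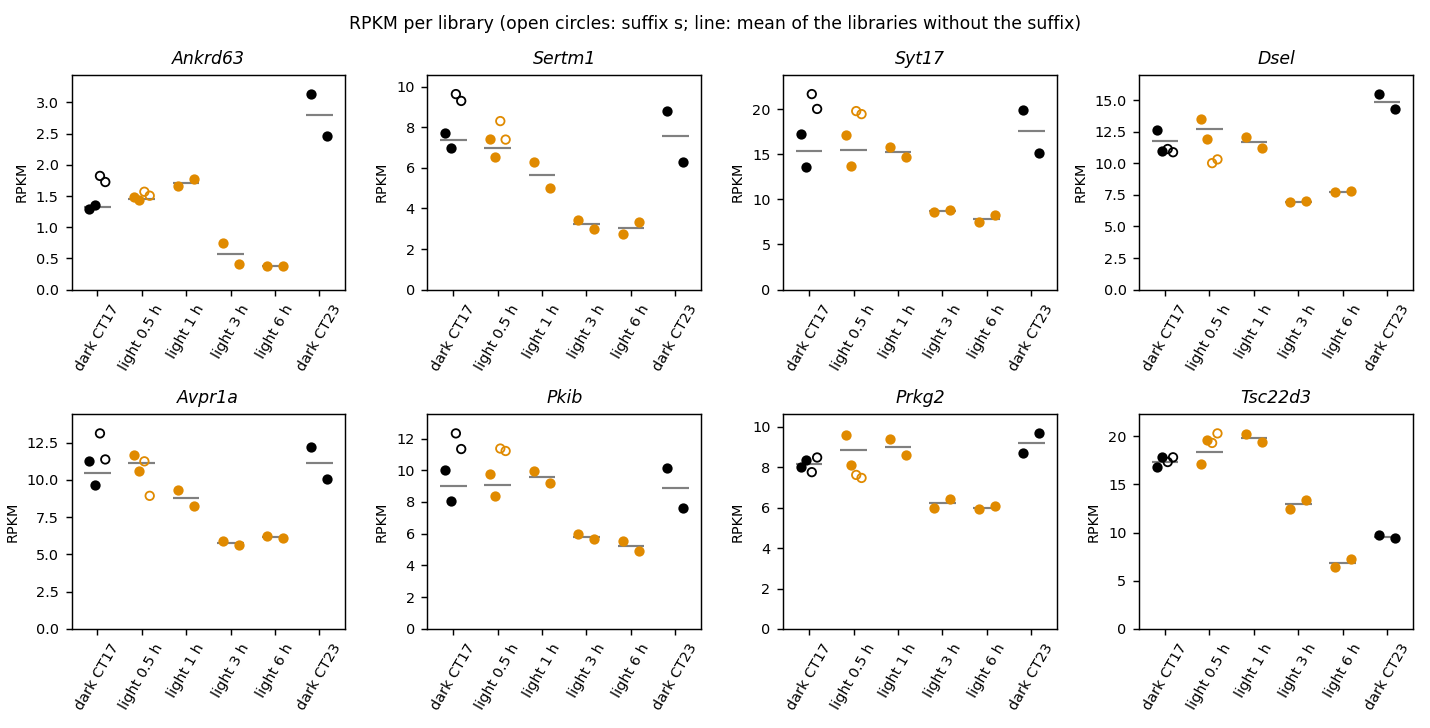
RPKM is on the y axis for 8 members in each light-pulse library, by group on the x axis. Light libraries are orange and dark ones black, open circles are libraries with the suffix s, and the line is the mean of the 2 libraries without it. In all 8 panels the 3 h values lie below the 1 h values, and only in Tsc22d3 do the dark values at CT23 lie below those at 3 h.

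Against 0.5 h of light (libraries without the suffix s), 23 of the 92 tested members were lower after 3 h and none was higher. Of all genes tested 0.868% were called lower and 1.23% higher. The 3 h libraries are shared with the comparison with 1 h, and the labels put the 3 h libraries in batch 2 and these 0.5 h libraries in batch 1. The 6 h libraries that chose the members are also in batch 2. The CT17 libraries they were set against are in batch 1, as is CT23 replicate 1, whereas CT23 replicate 2 is in batch 2. The choice and this comparison thus cross the batches in part the same way. With the labels' batch as a term 40 members were called lower, beside 4.98% of all genes in that fit. That fit has a single mean per group, and at CT17 and 0.5 h batch 2 holds just the libraries with the suffix s. Batch and suffix cannot be told apart in these groups. Both 3 h values were below both 0.5 h values for 66 of the 93 members (71.0%), as for 23.2% of expressed genes. Gkn3, a gastrokine, had 2.96 and 2.06 RPKM after 3 h, against 5.21 and 6.33 RPKM after 0.5 h (log2 change -1.19 ± 0.22, edgeR adjusted p = 0.0103). Cxcl12, a chemokine, had 3.63 and 3.58 RPKM after 3 h, against 5.47 and 8.05 RPKM after 0.5 h (-0.88 ± 0.16, edgeR adjusted p = 0.00700). Tmc7, a transmembrane channel-like gene, had 4.32 and 3.92 RPKM after 3 h, against 6.40 and 5.66 RPKM after 0.5 h (-0.53 ± 0.08, edgeR adjusted p = 0.00342). Without 0.5 h replicate 2, the library with high meningeal and pericyte markers, 15 members were called, and Gkn3 and Cxcl12 were not. In that fit 0.429% of all genes were called lower. Without 3 h replicate 1 or replicate 2 the count was 11 each time, beside 0.298% and 0.36% of all genes.

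In the main fits, light-pulse comparisons within the first hour called few genes lower. The absence of member calls there therefore does not set the members apart. Between 1 h and 0.5 h of light no member was called, at a background of 0.0413% of genes called lower and 0.303% called higher. An unadjusted edgeR p under 0.05 was found for 10 of the 92 members and for 1232 of all 14524 genes. DESeq2 called 1 member, beside 0.179% of all genes. With the labels' batch as a term 13 were called lower, beside 3.22% of all genes in that fit, and without 0.5 h replicate 1 the count was 6, beside 4.09%. Both 1 h values were below both 0.5 h values for 26 of the 93 members (28.0%), as for 17.2% of expressed genes. After 0.5 h of light against CT17 dark, in the libraries with the suffix s, no member was called, and DESeq2 called 0. The background was 0.00689% of genes called lower and 0.337% called higher. Here 6 of the 92 members and 379 of all 14524 genes had an unadjusted edgeR p under 0.05. Both 0.5 h values were below both CT17 values for 30 members (32.3%), as for 18% of expressed genes. Means continued downward between 3 h and 6 h in part of the members: the lowest mean of the 4 light durations was at 6 h for 61 members, at 3 h for 26, at 1 h for 5 and at 0.5 h for 1. The 6 h libraries chose the members, so that this is a description.

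Immune and blood genes stood among the members beside the neuronal ones. Ly86, a partner protein of an innate immune receptor, had 11.1 and 11.4 RPKM after 6 h, against 19.3 and 15.9 RPKM at CT23. The chemokine Ccl6 was at 0.691 and 0.646 RPKM after 6 h, against 1.38 and 0.942 RPKM at CT23. The adult beta-globin gene Hbb-bt was at 5.61 and 3.59 RPKM after 6 h, against 8.89 and 5.74 RPKM at CT23, and reached 42.4 RPKM in the 0.5 h library 2s and 214 RPKM in WT dark replicate 1. Globin genes are near-identical copies, so its counts are uncertain. The summed microglia markers were 145 and 153 RPKM after 6 h, against 158 and 161 RPKM at CT23, and the endothelial markers 34.1 and 41.6 RPKM, against 36.5 and 42.9 RPKM. All 10 genes of both lists were above 0 in every library, and their part in the result was not tested.

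Lists of related genes were set beside the members. Of 23 tested SCN peptides and receptors, Avpr1a was the only one lower at 3 h against 1 h and none was higher, with a median log2 change of 0.10. Of 16 synaptotagmins 1 was lower, Syt17, and 1 was higher (median 0.13). None of 45 calcium, sodium, HCN and TRP channel genes was lower and 1 was higher (median 0.04). Of 38 serotonin, dopamine, acetylcholine, opioid and adenosine receptors none was called either way (median 0.04), nor was any of 16 interferon-responsive genes (median -0.21). The members on the last 3 lists were Trpc4, Drd5 and Xaf1.

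The Npas4 experiment showed how the members behaved after a 1 h pulse and without Npas4, an activity-induced bHLH-PAS transcription factor. Counts of Npas4 itself were 127, 236 and 152 in KO light libraries and 146, 281 and 287 in KO dark libraries, against 406, 327 and 423 in WT light and 236, 250 and 249 in WT dark libraries. The libraries labelled KO therefore lay below WT in light and overlapped WT in the dark. The deleted part is not given in the sources used here, so these counts do not check the genotype labels, and directions below rest on the labels.

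After 1 h of light 5 of the 92 tested members were lower in WT littermates and none was higher. Of all 15001 genes 0.34% were called lower and 2.23% higher. Fzd8 had 4.06, 4.11 and 3.66 RPKM in WT light, against 6.74, 9.83 and 7.42 RPKM in WT dark (log2 change -1.0 ± 0.22, edgeR adjusted p = 0.0270). Sertm1 had 9.01, 9.24 and 8.57 RPKM in WT light, against 12.1, 14.9 and 14.9 RPKM in WT dark (-0.62 ± 0.13, edgeR adjusted p = 0.0182). Mycl, the L-Myc transcription factor, had 2.99, 3.26 and 3.07 RPKM in WT light, against 4.71, 4.39 and 4.51 RPKM in WT dark (-0.52 ± 0.09, edgeR adjusted p = 0.00646). The groups did not overlap in any of these genes. The ubiquitin-conjugating enzyme Ube2d1 (-0.39 ± 0.08) and Tmc7 (-0.27 ± 0.06) were the others called, with edgeR adjusted p of 0.0160 and 0.0260. All 3 light libraries were below all 3 dark libraries for 21 members (22.6%) in WT, as for 9.22% of expressed genes. The count was 1 without WT dark replicate 2, WT dark replicate 3 or WT light replicate 1, and 2 without WT light replicate 2 or 3, beside 0.0993% to 0.251% of all genes in these 5 fits. Mycl was called in all 10 alternatives. With the replicate number as a block, 10 members were lower, the 5 named among them, beside 1.33% of all genes.

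In KO mice Mycl and Tmc7 were lower after light, 2 of 92 members beside 0.113% of genes. Mycl had 3.59, 3.23 and 3.35 RPKM in KO light, against 4.10, 4.99 and 5.14 RPKM in KO dark (log2 change -0.46 ± 0.09, edgeR adjusted p = 0.0221). Tmc7 had 4.83, 4.94 and 5.14 RPKM in KO light, against 6.33, 6.39 and 5.97 RPKM in KO dark (-0.30 ± 0.06, edgeR adjusted p = 0.0191). All 3 KO light libraries were below all 3 KO dark libraries for 13 members (14.0%), as for 6.28% of expressed genes. Neither call held without KO dark replicate 2 or without any 1 of the 3 KO light libraries. The difference of the light response between genotypes was called for none of the 92 members, beside 0.0133% of genes called lower, and DESeq2 called 0. No member and 342 of all 15001 genes had an unadjusted edgeR p under 0.05 there. For Fzd8 the difference of the light response was 0.32 ± 0.31 on the log2 scale, KO minus WT, and for Sertm1 0.08 ± 0.18.

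Genotype itself went with the level of several members. In the dark 7 of 92 were lower in KO and 2 were higher, beside 0.32% of genes called lower and 0.433% called higher. Drd5 had 1.68, 1.12 and 1.24 RPKM in KO dark, against 3.16, 2.89 and 2.93 RPKM in WT dark (log2 change -1.16 ± 0.17, edgeR adjusted p = 0.00537). After light it had 1.29, 1.04 and 0.908 RPKM in KO, against 2.53, 1.78 and 2.05 RPKM in WT. The ACC synthase-like gene Accs had 1.55, 1.43 and 1.54 RPKM in KO dark, against 2.67, 3.05 and 3.19 RPKM in WT dark (-0.98 ± 0.08, edgeR adjusted p = 9.45e-05). Abcc8 had 1.73, 1.68 and 1.59 RPKM in KO dark, against 3.14, 3.36 and 2.88 RPKM in WT dark (-0.91 ± 0.09, edgeR adjusted p = 0.000335). None of these 3 genes had overlapping genotypes in the dark or after light.

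Both Wnt pathway genes called were lower in KO. Wnt3, a secreted Wnt ligand, had 1.77, 1.90 and 1.93 RPKM in KO dark, against 2.73, 3.08 and 3.06 RPKM in WT dark (log2 change -0.66 ± 0.09, edgeR adjusted p = 0.00439). Nkd1, an inhibitor of Wnt signalling, had 4.35, 4.29 and 4.38 RPKM in KO dark, against 6.79, 8.89 and 7.70 RPKM in WT dark (-0.85 ± 0.11, edgeR adjusted p = 0.00292). Plch2 (-0.89 ± 0.16) and the TGF-beta family ligand Gdf10 (-0.87 ± 0.15) were also lower, with edgeR adjusted p of 0.0192 and 0.0180. The higher genes were Lgi2, which encodes a secreted synaptic protein, and Baiap2l2. Lgi2 had 13.9, 16.7 and 15.7 RPKM in KO dark, against 9.02, 10.2 and 9.11 RPKM in WT dark (0.71 ± 0.12, edgeR adjusted p = 0.0161). Baiap2l2 had 0.832, 1.15 and 0.958 RPKM in KO dark, against 0.427, 0.328 and 0.278 RPKM in WT dark (1.52 ± 0.24, edgeR adjusted p = 0.0107). Over the 93 members, all 3 KO dark libraries were below all 3 WT dark libraries for 16 (17.2%) and above them for 8 (8.60%), as for 6.9% and 4.46% of expressed genes. After light KO lay below WT for 18 (19.4%) and above it for 17 (18.3%), as for 7.2% and 5.59% of expressed genes. The WT dark libraries also serve the light comparison in WT. DESeq2 called 11 members lower and 4 higher, beside 0.7% and 1.05% of all genes. With the replicate number as a block edgeR called 11 lower and 5 higher, all 9 among them, beside 1.41% and 1.68% of all genes. Without WT dark replicate 3 the count was 5, beside 0.139% of genes lower and 0.179% higher, and Baiap2l2 was not among them. Replicate 1 of KO dark, with its high meningeal markers, gave a count of 8 when left out, 7 of them among the 9.

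**Figure D4:**
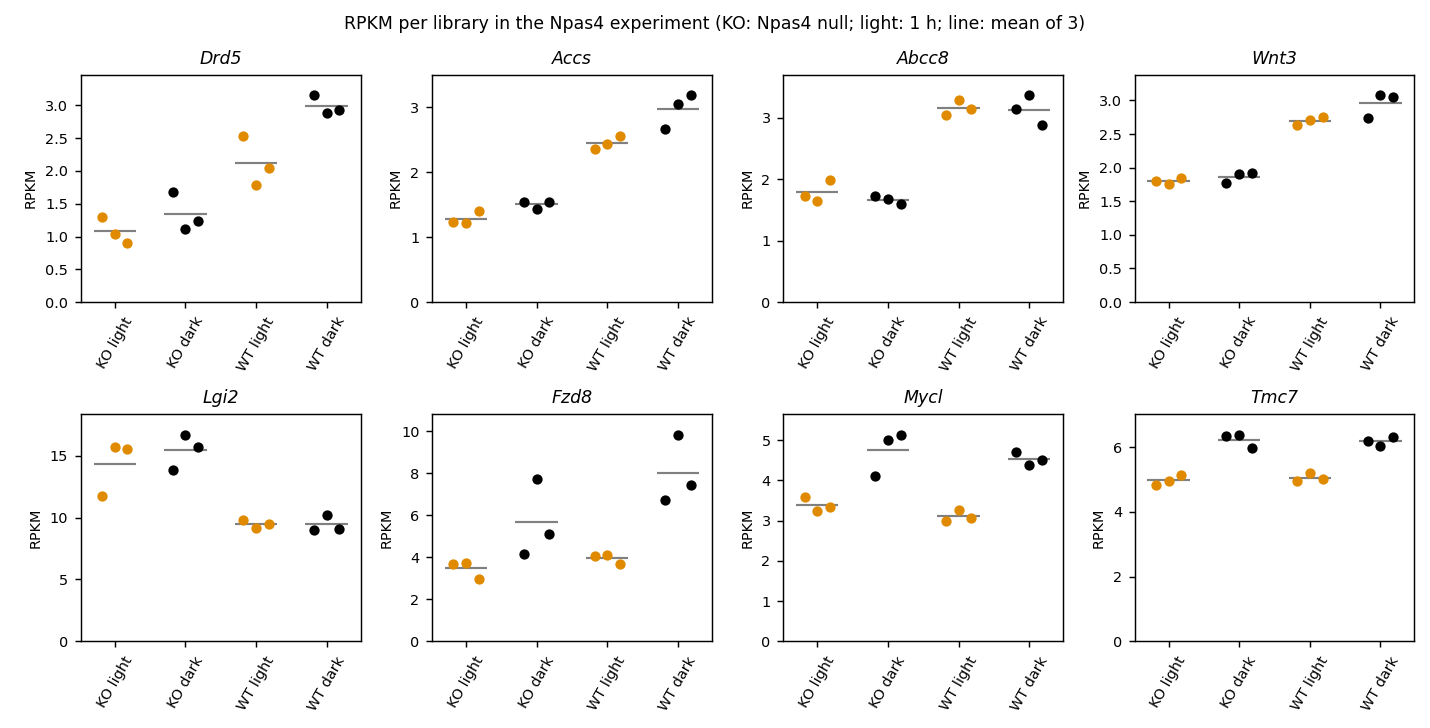
RPKM is on the y axis for 8 members in the 12 libraries of the Npas4 experiment, with KO light, KO dark, WT light and WT dark from left to right. Points are libraries, orange in light and black in the dark, and the line is the mean of 3. Drd5, Accs, Abcc8 and Wnt3 are lower and Lgi2 higher in both KO groups. Fzd8, Mycl and Tmc7 are lower in the WT light group than in the WT dark group. Mycl and Tmc7 are also lower in KO light than in KO dark, and no member was called for a genotype difference in the light response.

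Chromatin marks at the members' start sites were read from the authors' peak lists, for the 74 members with a start in the RefSeq table. A peak counted when it came within 1000 bases of a start. An H3K27ac peak was present at 23 members (31.1%) in light and 29 (39.2%) in the dark, against 76.5% and 77.9% of 9566 expressed genes. H3K4me3 was at 62 members (83.8%) in both conditions, against 95.5% of expressed genes in light and 96.2% in the dark. Because members were expressed at a low level, shares were also read within bands of CT23 level, a split chosen after the data were seen. In the dark, H3K27ac was at 26.9% of 26 members and 44.2% of genes from 1 to 2 RPKM, 48% of 25 members and 66.1% of genes from 2 to 5, 30.8% of 13 members and 81.3% of genes from 5 to 10, and 60% of 10 members and 89.3% of genes at 10 RPKM or more. The members' share was the lower one in each of the 4 bands. With 1 library per list these values have no replicate check.

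Among members that carry the results, the start of Ankrd63 and that of Avpr1a had H3K4me3 peaks in both conditions and no H3K27ac peak in either. At Avpr1a the authors' fold enrichment of H3K4me3 was 14.9 in light and 25.1 in the dark. Other members had a higher fold in the dark list too, such as Dsel (26.6 in light, 45.2 in the dark). Some had a lower one, such as Drd5 (20.0 and 12.0). The dark H3K4me3 list held 30410 peaks, against 27551 in light. Dsel had an H3K27ac peak in the dark alone (authors' fold 8.91), as did Tanc1 (6.46), and both had H3K4me3 in both conditions. At Tmc7 H3K27ac had a fold of 4.79 in light and 7.99 in the dark. In all, 8 members had an H3K27ac peak in the dark alone (10.8%, against 6.48% of expressed genes), namely Dsel, Nckap5, Prr15, Sord, Srd5a1, Tanc1, Trpc4 and Xaf1. Slc38a11 and Thrsp had one in light alone (2.703%, against 5.07%), and 43 members had none in either list (58.1%, against 17%). With peaks of -log10 q of at least 5, H3K27ac was at 13 members in light (17.6%, against 65.0% of expressed genes) and at 25 in the dark (33.8%, against 72.8%).

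**Figure D5:**
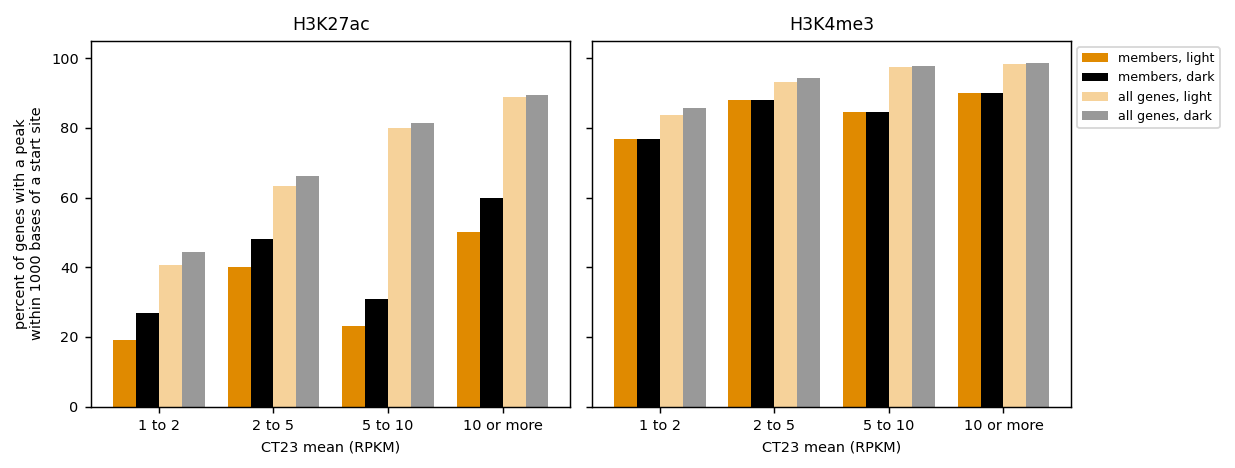
Bars give the percent of genes with a peak within 1000 bases of a start site on the y axis, by band of mean CT23 RPKM on the x axis, for H3K27ac (left) and H3K4me3 (right). Orange and black are members in light and dark, pale orange and grey all expressed genes in light and dark. The member bars for H3K27ac are below those of all genes in each band, for example 60% against 89.3% in the dark at 10 RPKM or more.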

How the data were processed

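Bulk RNA-seq of 16 light-pulse and 12 Npas4 libraries was used. Of 52 samples given, 18 single-nucleus samples were not analysed here. Raw counts by gene symbol, in whole numbers, were deposited together with RPKM values, and the deposited RPKM were found equal to the counts scaled to gene length and library total. The deposited peak lists give each peak a linear fold enrichment (a ratio) and a -log10 q-value, per the labels from 1 library per mark and condition. Per the submitters' processing notes, the series used mm10, HTSeq 0.9.1, STAR 2.7.1a, MACS2 2.1.1, featureCounts 1.6.2 and BWA 0.7.16a, without roles. Nothing used here states counting options or strandedness, so overlapping genes are uncertain.

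Members were found in the deposited RPKM table. Counts were tested with edgeR 4.0.16 (R 4.3.3; TMM, filterByExpr, quasi-likelihood F-test, Benjamini-Hochberg over all genes, adjusted p of 0.05), on all libraries of an experiment. Light-pulse groups were fitted with libraries with and without the suffix s as separate means, and the Npas4 experiment with 4 group means. Earlier results had shown the suffix on the first principal component, the axis of largest spread between libraries (30% of the variance). The 4 suffix libraries scored 10.09 to 34.71 there. The other light-pulse libraries scored -19.33 to -1.263, apart from 0.5 h replicate 2 at 35.25. The suffix libraries are also deeper than the other light-pulse libraries. Fold changes are log2 with SE. On simulated counts, 85.9% of genes changed by 1 and 53% of genes changed by 0.5 on the log2 scale were recovered for 3 h against 1 h, with 4 false calls among 14444 genes, and 85% and 60.6% for light against dark in WT, with 12 false calls among 14944 genes. The genes changed in the simulation were drawn from all genes that passed the filter. Members are more weakly expressed (CT23 median of 3.00 RPKM, against 8.36 RPKM over expressed genes), so these shares do not give the recovery for members. DESeq2 1.42.0, another scaling, no filter, other terms for the libraries and left-out libraries were alternatives. No source says that libraries of a group are separate days or cohorts, so p-values measure the spread between libraries. Chi-square per degree of freedom between libraries of 1 group was at least 4.71, above sampling noise, so each was counted as a library, which does not show that their pools were separate. Same-numbered libraries deviated together in WT light and dark (correlations 0.198 to 0.264) and in KO and WT dark (0.205 to 0.525), each over 0.1, so a fit with the replicate number as a block is given beside those comparisons. This pairing comes from the data, not the labels. Named are members called in a comparison (at most 10 per direction, 25 at 6 h), those on a listed gene group, the highest and those at the limit. Other genes were named after their values were seen. The members, gene lists and tests were chosen with earlier results of these data known, and the grouping of members by role after their values were seen. RefSeq (GRCm38.p6) named 91 members. 1 member counted in the totals is not reported here by name.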

Additional observations from a re-analysis of the deposited data

Results flagged for a closer look

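Among 186 sets of 4 libraries (93 members at CT17 and at 0.5 h), 5 held a library far from the other 3 by Dixon's test, where chance gives about 1 in 20. At CT17, Accs was at 1.69 RPKM in replicate 2, against 2.34 to 2.41 RPKM in the others. Cox7b2 was at 0.834 RPKM in CT17 replicate 1, against 0.673 to 0.676 RPKM. Dsel was at 12.6 RPKM in CT17 replicate 1, against 10.9 to 11.1 RPKM. Foxb1 was at 1.15 RPKM in CT17 replicate 2, against 0.970 to 0.985 RPKM. At 0.5 h, Zfp804b was at 1.75 RPKM in replicate 2, the library with high meningeal markers, against 2.31 to 2.42 RPKM.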

How the results depend on the processing

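For 3 h against 1 h of light 14 members were called, against 9 with a term for label batch and 6 with no term for the suffix. The comparison of 3 h with 0.5 h gave 23, against 40 with the label batch. Between 1 h and 0.5 h the count was 0, against 13 with the label batch and 1 in DESeq2. For 6 h against CT23 it was 32, against 21 with no term (0.179% of all genes called lower). KO against WT in the dark gave 9, against 15 in DESeq2. With 1 library left out, the counts ranged from 4 to 10 (3 h against 1 h, of which 1 was higher without 1 h replicate 2), 11 to 22 (3 h against 0.5 h), 0 to 6 (1 h against 0.5 h), 12 to 16 (6 h against CT23), 1 to 6 (light in WT), 0 to 3 (light in KO) and 5 to 10 (KO against WT in the dark). In light-pulse fits a lone library was then assumed to vary like the other groups. Without 0.5 h replicate 1, which gave the highest count against 0.5 h, more of all genes were also called lower than in the main fit. In the Npas4 experiment the highest counts stood beside 0.199% (light in WT) and 0.0862% (light in KO) of all genes called lower. For KO against WT in the dark these shares were 0.251% lower and 0.324% higher. At CT17 and 0.5 h the label batch coincides with the suffix s, so the batch term cannot be told apart from the suffix there. The cause of the shifts in these counts was not tested. Calls for 0.5 h against CT17 and for the genotype difference stayed at 0 in all alternatives run. No member called in the 5 comparisons with calls (6 h against CT23 apart) changed sign in an alternative. With a CT23 minimum of 5 RPKM, 32 genes met the choice in place of 93. H3K27ac peaks of -log10 q of at least 5 were at 13 members in light, in place of 23, and at 25 in the dark, in place of 29, where the shares of expressed genes were 65.0%, in place of 76.5%, and 72.8%, in place of 77.9%.

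Same-numbered libraries correlated at 0.0576 between 3 h and 1 h and at -0.129 between 3 h and 0.5 h, where 2 libraries a group allow no pairing to be told, and at 0.0978 to 0.483 between KO light and dark, where 5 of 6 libraries correlated best with their own number. With the replicate number as a block, member calls were 18 (3 h against 1 h), 28 (3 h against 0.5 h), 41 (6 h against CT23), 10 (light in WT), 7 (light in KO) and 16 (KO against WT in the dark, 11 lower and 5 higher). In the first 5 of these fits 0.991%, 1.81%, 0.606%, 1.33% and 0.46% of all genes were called lower, in this order. For KO against WT in the dark 1.41% were called lower and 1.68% higher. Each share was above that of the main fit. The block ended no call.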
